A study of Drosophila melanogaster with 9 samples.

Results

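The mRNAs that encode the proteins of the large ribosomal subunit were followed across an iCLIP2 experiment on Mei-P26 in Drosophila cells. Members are all annotated genes whose FlyBase symbol starts with RpL, the stalk proteins RpLP0, RpLP1 and RpLP2 included and the mitochondrial mRpL genes excluded. The rule finds 51 genes with at least 1 cDNA, of 6780 genes in all, and uses no measured value. RpL10Aa, RpL22-like and RpL37-2 match the rule by symbol and are listed at 0 cDNAs in every library. RpLP0-like, RpL7-like and RpL24-like match it as well, although their yeast relatives Mrt4, Rlp7 and Rlp24 act in the assembly of the subunit and are not part of it.

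Mei-P26 is a TRIM-NHL protein that controls germline differentiation, and its C-terminal NHL domain is a β-propeller that binds single-stranded, U-rich RNA. iCLIP2 joins protein and RNA with UV light, and since reverse transcription tends to stop at the crosslink, each distinct cDNA marks 1 nucleotide. Ribosomal protein mRNAs are among the most abundant mRNAs of a growing cell, and many of their introns harbour small nucleolar RNAs (snoRNAs), which guide the chemical modification of ribosomal RNA.

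Schneider's line 2 cells were transfected with 15 µg DNA per dish of a pAC5.1 plasmid for FLAG-tagged full-length Mei-P26 (3 libraries) or for its FLAG-tagged NHL domain (3 libraries), and were crosslinked after 48 h. Non-transfected cells gave the 3 control libraries by their sample labels, whereas the treatment text common to all samples speaks of substituted proteins as control. That text names S2R+ cells for the culture. All samples are labelled with the anti-FLAG M2 antibody, whereas the extraction text they share also mentions a control serum, and both proteins were made from a plasmid in a cell line rather than from the endogenous gene.

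The U-rich stretches that the study's supplementary table lists close to crosslinks show what kind of RNA element is at issue. Members appear in that table only if both proteins crosslinked to them, and the elements were picked there for their U content, so neither property is a result here. Of 15 such elements in 13 members, each 7 to 11 nt long, the following are shown because they belong to members with crosslink clusters described below. They are written as DNA, 5′ to 3′, and capitals mark the longest run of T.
RpLP1 (chromosome 2L): TTTTTaat
RpL35 (chromosome X): TTTTTTTTaaa
RpL13A (chromosome 3R): TTTTTTaaaa
RpL10Ab (chromosome 3L): TTTTTcttaca
RpL8 (chromosome 3L): ttaTTTTgca
RpL5 (chromosome 2L): TTTTata
RpL36A (chromosome 2L): TTTTcgc
The 7-mer given for RpL5 is also listed for RpL4, RpL7 and RpL23A, so 4 of the 13 members share it. A run of at least 4 T is present in 13 of the 15 elements, and the exceptions are both from RpL6.

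The depth of the libraries sets how firmly each value can be read. The full-length libraries held 14685, 1878 and 21831 cDNAs, the NHL domain libraries 4321, 7947 and 40032, and the control libraries 1252, 1160 and 849. Full-length replicate 2 and all control libraries are thus shallow, and a single cDNA weighs much in them. Among markers of cultured hemocyte-like cells, Col4a1, vkg, srp, crq and Pxn carried 164, 126, 39, 27 and 5 cDNAs. Hml, He and NimC1 were listed at 0 in all libraries. Of the germline markers, vas, bam and bgcn were also at 0, aub had 2 cDNAs in full-length libraries, and for nos no symbol was matched. The neuronal elav had 6 cDNAs and nSyb 0, and the follicle cell markers tj and slbo were at 0.

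The large-subunit mRNAs took up a smaller part of the full-length libraries than of the others. Per 10000 cDNAs of a library, RpL genes received 401, 639 and 502 cDNAs with full-length Mei-P26, 625, 859 and 710 with the NHL domain, and 887, 664 and 766 in the control. The means were 514 ± 119, 731 ± 119 and 772 ± 112 (SD, n = 3 each). Each full-length library was below each control library on this scale, and the NHL domain libraries overlapped with both other groups. The separation from the control was lost outside snoRNA positions, where full-length replicate 2 stood at 612 and control replicate 2 at 560.3 per 10000. It was also lost per 10000 cDNAs of protein-coding genes (837 against 823) and at positions of a single gene (575 against 552) in the same libraries. The mean share was thus highest in the control, where no FLAG-tagged protein was labelled as present. The amount of an mRNA and its crosslinking per molecule cannot be told apart in these libraries, nor can fewer transfected cells and fewer crosslinks per cell.

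**Figure D1:**
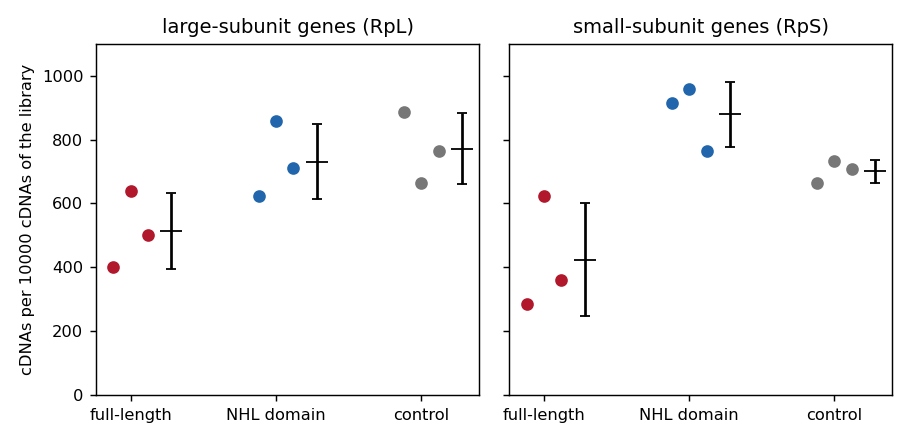
cDNAs on RpL genes (left) and RpS genes (right) per 10000 cDNAs of each library. Coloured points are libraries, and the black bar beside them is the mean ± SD of 3 libraries. The full-length libraries lie at 401 to 639 for RpL, all below the control libraries at 664 to 887 on this scale, whereas outside snoRNA positions full-length replicate 2 (612) exceeds control replicate 2 (560.3).

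The mRNAs of the small subunit (35 RpS genes including sta) offered a comparison within each library that does not use the library total, although its counting error still depends on depth. RpL cDNAs per RpS cDNA came to 1.41, 1.03 and 1.39 with full-length Mei-P26, 0.682, 0.898 and 0.929 with the NHL domain, and 1.34, 0.906 and 1.08 in the control. Each full-length library thus held more RpL than RpS cDNAs, each NHL domain library held fewer, and the control spread over both sides. Full-length replicate 2 was close to equal, with 639 RpL and 623 RpS cDNAs per 10000 and only 120 RpL cDNAs in all. The control ratios rest on 65 to 111 RpL cDNAs. Whether these libraries lie above or below 1 is hence uncertain. The cytoplasmic translation factors (41 eIF, eEF and eRF genes) stood at 200.2 ± 30.4, 224 ± 27.9 and 266 ± 47.8 per 10000 in full-length, NHL domain and control libraries, and the 59 mitochondrial ribosomal protein genes at 11.96 ± 5.84, 15.3 ± 1.30 and 15.2 ± 9.42 (SD, n = 3 each).

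The stalk is the flexible arm of the large subunit that recruits translational GTPases, and it contained the member that differed between the proteins past the threshold of the test given below. RpLP1 encodes an acidic stalk protein. Its mRNA carried 17, 1 and 10 cDNAs in full-length libraries, 16, 58 and 160 in NHL domain libraries and 7, 3 and 4 in control libraries. The corresponding rates were 11.6, 5.32 and 4.58 per 10000 with full-length Mei-P26, 37.0, 73.0 and 40.0 with the NHL domain, and 55.9, 25.9 and 47.1 in the control. The full-length rates were below all others, and the NHL domain and control rates overlapped. As a share of all RpL cDNAs of a library, RpLP1 made up 2.89%, 0.833% and 0.913% with full-length Mei-P26, 5.93%, 8.49% and 5.63% with the NHL domain, and 6.31%, 3.90% and 6.15% in the control, so that the same order was seen without reference to the rest of the library. Exact 95% intervals of these shares ran from 0.0211% to 4.58% over the full-length libraries, from 3.42% to 10.8% over the NHL domain libraries and from 0.811% to 15.0% over the control libraries.

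Of the clustered regions of RpLP1, 1 held more cDNAs than the others in each group. This region on chromosome 2L from 420655 to 420672 (plus strand, coordinates of the Ensembl release 98 genome as deposited), centred 200 nt before the 3′ end of the gene, held 8, 0 and 2 cDNAs with full-length Mei-P26, 10, 30 and 86 with the NHL domain, and 4, 3 and 2 in the control. Within it, nucleotide 420660 alone had 3 cDNAs over the full-length, 50 over the NHL domain and 1 over the control libraries. The site thus had cDNAs in all control libraries, where it took 57.1%, 100% and 50.0% of the cDNAs of the gene. A further region close to the start of the gene, from 419965 to 419976, held 1, 30 and 1 cDNAs in full-length, NHL domain and control libraries. Outside the main site the rates were 6.13, 5.32 and 3.66 per 10000 with full-length Mei-P26, 13.9, 35.2 and 18.5 with the NHL domain, and 24.0, 0 and 23.6 in the control, so the full-length and NHL domain libraries were also apart without it.

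The values of the other stalk members were closer to each other. RpLP2, its partner in the stalk dimers, stood at 12.9, 16.0 and 15.6 per 10000 with full-length Mei-P26, 13.9, 21.4 and 16.7 with the NHL domain, and 31.9, 17.2 and 0 in the control. RpLP0, which anchors these dimers to the ribosome, averaged 15.8 ± 4.85, 17.6 ± 6.94 and 16.8 ± 17.3 in full-length, NHL domain and control libraries (SD, n = 3 each). In both genes the 3 groups overlapped. RpL12, which forms the base of the stalk with RpLP0, had 3, 2 and 14 cDNAs with full-length Mei-P26, 4, 8 and 48 with the NHL domain, and none in the control. Taking 3 counts in the pooled control libraries gives a floor of 9.20 per 10000. The pooled NHL domain rate of RpL12, 11.5 per 10000, was 1.25-fold that floor, but NHL domain replicate 1 alone stood at 9.26. In the test given below RpL12 did not pass between NHL domain and control (edgeR adjusted p = 0.812). Its pooled full-length rate of 4.95 was below the floor. A difference between full-length Mei-P26 and control was hence not detectable at this depth.

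**Figure D2:**
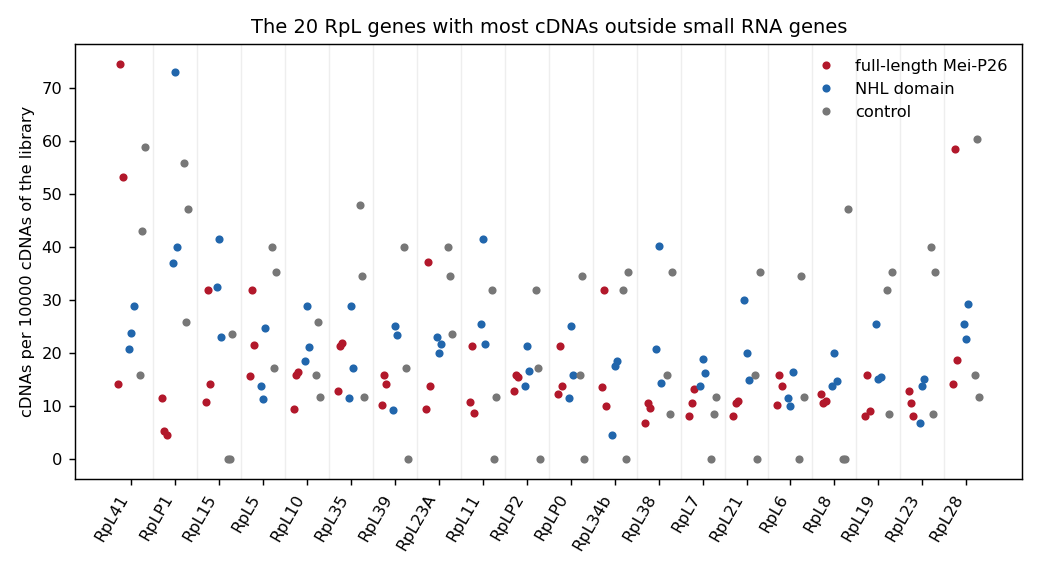
Rates of the 20 RpL genes with most cDNAs in the full-length and NHL domain libraries outside small RNA genes, per 10000 cDNAs of the library, each point being 1 library. The full-length points of RpLP1 (4.58 to 11.6) lie below its NHL domain points (37.0 to 73.0), and RpL41 reaches 74.5 in a full-length library.

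RpL5 and RpL11 bind 5S ribosomal RNA before it enters the subunit. RpL5 gave 15.7, 31.9 and 21.5 per 10000 with full-length Mei-P26, 13.9, 11.3 and 24.7 with the NHL domain, and 39.9, 17.2 and 35.3 in the control. RpL11 gave 10.9, 21.3 and 8.70 with full-length Mei-P26, 25.5, 41.5 and 21.7 with the NHL domain, and 31.9, 0 and 11.8 in the control. All 3 full-length values of RpL11 were below all 3 NHL domain values, although the nearest were 21.3 and 21.7, and the groups of RpL5 overlapped. The cDNAs of RpL11 gathered in 25 nt, 350 nt before the 3′ end of the gene, with 9, 1 and 14 cDNAs in full-length, 5, 21 and 51 in NHL domain and 0 in all control libraries.

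Of the proteins next to the peptidyl transferase centre, RpL10 averaged 14.0 ± 3.88, 22.9 ± 5.41 and 17.9 ± 7.23 per 10000, RpL8 11.3 ± 0.847, 16.3 ± 3.39 and 15.7 ± 27.2, and RpL3 8.85 ± 4.37, 12.8 ± 5.35 and 16.4 ± 16.0 in full-length, NHL domain and control libraries (SD, n = 3 each). The control spread exceeded any of these differences for RpL8 and RpL3.

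The 8 exit tunnel proteins, which line the path of the nascent chain, summed to 71.5, 138 and 91.6 per 10000 with full-length Mei-P26, 102, 141 and 122 with the NHL domain, and 199.7, 121 and 106 in the control. The most frequent were RpL35, RpL39 and RpL23A. RpL35 had 12.9, 21.3 and 22.0 per 10000 with full-length Mei-P26, 11.6, 28.9 and 17.2 with the NHL domain, and 47.9, 34.5 and 11.8 in the control. RpL39 had 10.2, 16.0 and 14.2 with full-length Mei-P26, 9.26, 25.2 and 23.5 with the NHL domain, and 39.9, 17.2 and 0 in the control. All groups overlapped in both. RpL23A averaged 20.2 ± 14.9, 21.7 ± 1.51 and 32.7 ± 8.34 in full-length, NHL domain and control libraries (SD, n = 3 each), but 34, 71 and 6 of its cDNAs were also assigned to Uhg7, a snoRNA host gene that overlaps it. RpL31 was among the 3 members with the highest fold change between the proteins, with 4.77, 21.3 and 4.58 per 10000 with full-length Mei-P26 and 2.31, 8.81 and 6.25 with the NHL domain, which overlap.

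RpL41 encodes a tiny basic peptide at the interface between the subunits, and its short mRNA had the most cDNAs per kb of all members in full-length and control libraries, and was second to RpLP1 with the NHL domain. It carried 21, 14 and 116 cDNAs with full-length Mei-P26, 9, 19 and 116 with the NHL domain, and 2, 5 and 5 in the control. In rates these were 14.3, 74.5 and 53.1, against 20.8, 23.9 and 29.0, and against 16.0, 43.1 and 58.9 per 10000. The full-length libraries thus disagreed among themselves, and replicate 1 was below all NHL domain libraries. Expressed per 10000 cDNAs and per kb of gene (RefSeq span with introns, small RNA positions left out), RpL41 averaged 91.0 in full-length, 47.3 in NHL domain and 75.6 in control libraries, in each case far above the member median of 6.30, 8.31 and 7.83. A stretch of 65 nt centred 56 nt before the 3′ end of the gene held 14, 12 and 95 of its cDNAs in full-length, 7, 13 and 85 in NHL domain and 2, 4 and 2 in control libraries. The next densest members per kb with full-length Mei-P26 were RpLP2 with 24.6, RpL39 with 23.3 and RpL34b with 18.7.

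**Figure D3:**
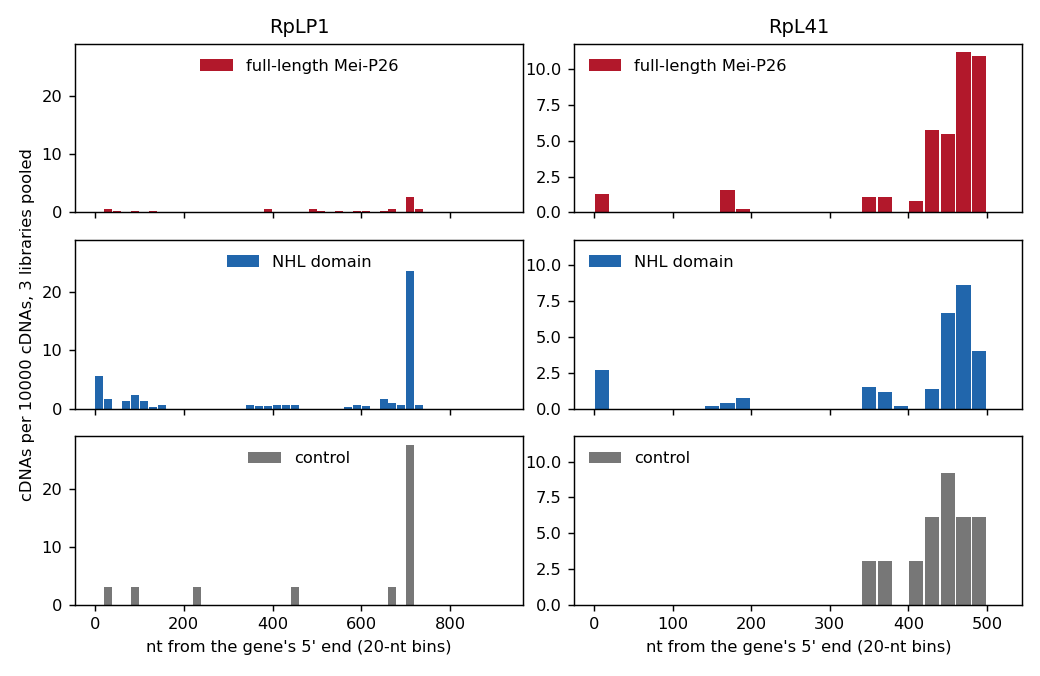
cDNAs along RpLP1 (left) and RpL41 (right) in 20-nt bins from the 5′ end of the RefSeq gene span, per 10000 cDNAs, with the 3 libraries of a group pooled. In RpLP1 the bin around the main site is low for full-length Mei-P26 and tall in both other groups, and in RpL41 all groups pile up near the 3′ end.

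RpL38, another surface protein, stood at 6.81, 10.6 and 9.62 per 10000 with full-length Mei-P26, 20.8, 40.3 and 14.5 with the NHL domain, and 16.0, 8.62 and 35.3 in the control. All full-length libraries were below all NHL domain libraries, and the control overlapped with both. RpL24 and RpL40 were sparse, with 29 and 20 cDNAs in full-length, 49 and 30 in NHL domain, and 9 and 3 in control libraries.

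Among the remaining members RpL15, which lies deep in the ribosomal RNA core, had 16, 6 and 31 cDNAs with full-length Mei-P26, 14, 33 and 92 with the NHL domain, and 0, 0 and 2 in the control. Its rates of 32.4, 41.5 and 23.0 per 10000 with the NHL domain overlapped with 23.6 in control replicate 3, a value that rests on 2 cDNAs. RpL37A had 5.45, 0 and 5.04 per 10000 with full-length Mei-P26, 13.9, 15.1 and 14.7 with the NHL domain, and 0, 8.62 and 0 in the control. RpL14 had 5.45, 0 and 6.41 with full-length Mei-P26, 13.9, 22.7 and 13.5 with the NHL domain, and 0, 25.9 and 35.3 in the control. In both genes the full-length libraries lay below the NHL domain libraries.

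In 14 members some positions are also annotated as snoRNA, and cDNAs there can stem from the snoRNA, from the intron or from the unspliced transcript, which cannot be told apart. Such positions took 3.90%, 4.17% and 3.56% of RpL cDNAs with full-length Mei-P26, 8.15%, 7.61% and 8.52% with the NHL domain, and 5.41%, 15.6% and 6.15% in the control. The full-length libraries were below all others, although exact 95% intervals overlapped for many pairs with a shallow library. That of full-length replicate 1 (up to 5.80%) also overlapped with those of NHL domain replicates 1 (from 5.18%) and 2 (from 5.74%). RpL28 was the largest host, with 21 of 73 cDNAs at snoRNA positions for full-length Mei-P26, 88 of 146 for the NHL domain and 5 of 10 in the control, most of them at snoRNA:Me28S-C3351. In RpL22 the corresponding counts were 16 of 27, 47 of 83 and 4 of 10, mainly at snoRNA:Psi28S-2179. RpL13A had 4 of 44, 44 of 104 and 2 of 4, and RpL3 had 6 of 42, 38 of 84 and 1 of 6. With the NHL domain, 42.3% to 60.3% of the cDNAs of these 4 members were thus at snoRNA positions, beside 9.09% to 59.3% with full-length Mei-P26. The other hosts, RpL4, RpL5, RpL10Ab, RpL11, RpL14, RpL15, RpL17, RpL27A, RpL30 and RpL36A, had at most 28.2% of their NHL domain cDNAs at such positions.

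Paralogs were recovered unequally. RpL34b had 48, 90 and 7 cDNAs in full-length, NHL domain and control libraries, and its copy RpL34a 5, 10 and 0. RpL24-like had 7, 8 and 0 cDNAs, and RpL7-like 3, 5 and 0, all of them at positions shared with CG34164. RpLP0-like had 2, 7 and 0. Of RpL10Ab and RpL10Aa, RpL22 and RpL22-like, and RpL37-1 and RpL37-2, only the first of each pair was detected. Reads that match near-identical copies may be split or lost in counting, so these values are uncertain.

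RpL36, RpL21 and RpL7 are further proteins of the subunit body. RpL36 had 4.09, 5.32 and 4.58 per 10000 with full-length Mei-P26, 13.9, 12.6 and 11.5 with the NHL domain, and 24.0, 25.9 and 0 in the control. RpL21 had 8.17, 10.6 and 10.99 with full-length Mei-P26, 30.1, 20.1 and 15.0 with the NHL domain, and 16.0, 0 and 35.3 in the control. RpL7 had 8.17, 10.6 and 13.3, against 13.9, 18.9 and 16.2, and against 0, 8.62 and 11.8. In these 3 genes the full-length libraries were below the NHL domain libraries, by a margin as small as 13.3 against 13.9 in RpL7. RpL28 had 14.3, 58.6 and 18.8 with full-length Mei-P26, 25.5, 22.7 and 29.2 with the NHL domain, and 16.0, 60.3 and 11.8 in the control, and in the shallow full-length replicate 2 it was thus as frequent as in control replicate 2.

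The counts of all genes with at least 20 cDNAs over the 9 libraries were compared in a single edgeR quasi-likelihood fit with the library total as scale and Benjamini-Hochberg adjustment at 0.05. Of 864 genes tested, 47 were members, and the remaining 4 were RpL24-like, RpL34a, RpLP0-like and RpL7-like. Both contrasts with the control share the same 3 control libraries. Between full-length Mei-P26 and control 0 members passed, where 0.231% of all genes did, and 6 of 47 had an unadjusted p under 0.05 (6.48% of all genes), all lower with full-length Mei-P26. Between NHL domain and control 0 members passed, with 0% of all genes, and 3 of 47 had an unadjusted p under 0.05 (2.89% of all genes), namely RpL12 and RpL15 with higher and RpL24 with lower values. DESeq2 called 0 members in either contrast with both kinds of size factor.

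Between the proteins, 1 of 47 members passed the threshold, against 7.06% of all genes tested. RpLP1 was lower with full-length Mei-P26 than with the NHL domain by a log2 fold change of -2.71 ± 0.58 (SE from the F statistic, edgeR adjusted p = 2.17e-04), and it was lower in 3 of 3 libraries. The fold change ran from -3.38 without full-length replicate 1 to -2.30 without full-length replicate 3, and was -1.90 with DESeq2 and -1.68 with the default filter and TMM factors. The call did not hold without full-length replicate 3 (adjusted p = 0.0586), and over all alternatives the adjusted p ran from 4.63e-05 to 1, the highest without library size. Against the control, RpLP1 had a log2 fold change of -2.49 ± 0.73 with full-length Mei-P26 (adjusted p = 0.102) and of 0.22 ± 0.62 with the NHL domain (adjusted p = 0.991). The value for full-length Mei-P26 passes the threshold with a minimum of 50 cDNAs (adjusted p = 0.0464), and its adjusted p ran from 0.0297 to 0.797 over the alternatives. An unadjusted p under 0.05 was found for 6 of 47 members (17.9% of all genes).

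Relative to the median of all genes, the median of the members was low in this contrast with the library total and with DESeq2 size factors, but not with the default filter of edgeR. RpLP1, RpL37A (-1.59 ± 0.60, adjusted p = 0.0847) and RpL14 (-1.56 ± 0.57, adjusted p = 0.0752) had the lowest log2 fold changes, and RpL41 (0.76 ± 0.52, adjusted p = 0.450), RpL5 (0.21 ± 0.52, adjusted p = 0.880) and RpL31 (0.02 ± 0.81, adjusted p = 0.987) the highest. Without its snoRNA positions (0 cDNAs in full-length and 13 in NHL domain libraries) RpL14 was at -1.25 (edgeR adjusted p = 0.248), behind RpL38 at -1.49 and RpL11 at -1.41, among others. RpL36, which has no cDNAs at snoRNA positions, was at -1.45 in the main fit (edgeR adjusted p = 0.158). The value of RpL41 moved to 1.29 without full-length replicate 1 and to 0.43 without full-length replicate 2, was 0.07 without library size, and passed the threshold at 1.65 with the default filter and TMM factors (edgeR adjusted p = 0.00494). The median was -0.57 over 47 members and 0.20 over all genes tested, and 44 members had a value below 0 with the library total as scale but 16 with the size factors of DESeq2, which raised the median of all genes to 0.95 and that of the members to 0.13. The distance between both medians was -0.77 with the first scale and -0.82 with the second. With the default filter of edgeR, which left 12 members among 71 genes, it turned to 0.59. By rates per library total, every full-length library was below every NHL domain library in 15 of the 47 members, against 11.1% of all genes tested. In 0 members every full-length library was above, against 9.38%. Of the members 45 had at least 50 cDNAs, but of the 864 tested genes 320 did. These shares thus also compare genes of unlike cDNA number, and its part in them was not tested. RpS genes had a median of -0.65 over 32 genes, of which 2 passed the threshold in the lower direction and 0 in the higher. None of 23 translation factor genes passed (edgeR, 1 with an unadjusted p under 0.05), with a median of 0.03, and no mitochondrial ribosomal protein gene reached 20 cDNAs.

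**Figure D4:**
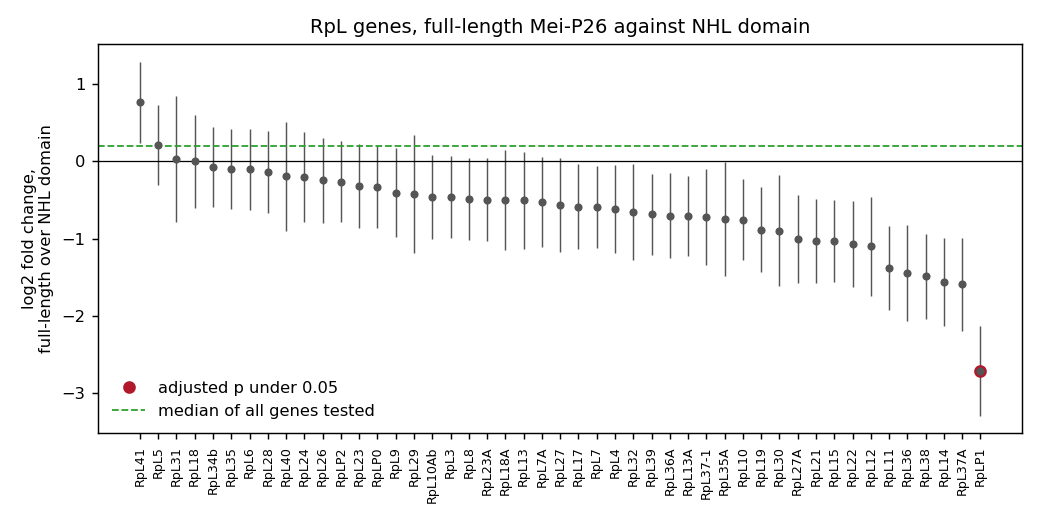
log2 fold change of full-length Mei-P26 over the NHL domain for the 47 tested RpL genes, sorted, with the standard error as bars. The dashed line is the median of all 864 genes (0.20), and RpLP1 at -2.71 is the gene past the threshold.

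Against the control the median over the members was -0.56 with full-length Mei-P26 and -0.05 with the NHL domain, beside 0.11 and 0.03 over all genes. With TMM factors the values became 0.65 and 1.00 for the members, beside 1.34 and 1.08 for all genes. The sign of many members against the control thus depended on the scale. With the library total, 33 of 47 members were below 0 for full-length Mei-P26, and 11 were with TMM factors. For the NHL domain these counts were 26 and 3. With TMM factors RpLP1 stayed below 0 for full-length Mei-P26 (-1.20). RpL12 and RpL15 stayed above 0 for the NHL domain (6.47 and 3.36). The median of the members minus that of all genes was -0.67 for full-length Mei-P26. It ran from -1.12 without control replicate 2 to -0.55 without full-length replicate 3, was -0.45 with DESeq2 and -2.09 without a filter, and turned to 0.10 with the default filter. For the NHL domain it was -0.08, with -0.59 without control replicate 2, -1.39 without a filter, -0.80 with the default filter and 0.0455 with DESeq2.

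Along the gene span, introns included, cDNAs outside snoRNA positions were concentrated at the 3′ end in all groups. The last 20% of the RefSeq gene span held 47.3%, 47.8% and 53.3% of RpL cDNAs with full-length Mei-P26, 37.9%, 32.0% and 45.5% with the NHL domain, and 29.5%, 41.5% and 32.8% in the control. Each full-length library was above each of the others on this span, with group means of 49.5 ± 3.31%, 38.5 ± 6.78% and 34.6 ± 6.21% (SD, n = 3 each). With RpL41 and RpLP1 left out, the means were 46.9 ± 3.46%, 40.0 ± 6.65% and 34.5 ± 4.20%, and NHL domain replicate 3 at 47.2% then overlapped with the full-length libraries (43.0% to 49.7%). The groups also overlapped when the span was taken between the outermost crosslinks of a gene, with 61.0% in full-length replicate 1 and 63.5% in NHL domain replicate 3.

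At the opposite end, the first 20 nt of the gene took 1.06%, 0% and 1.14% of RpL cDNAs with full-length Mei-P26, 3.23%, 4.75% and 2.15% with the NHL domain, and 2.86%, 1.54% and 1.64% in the control. These rest on 6, 0 and 12 cDNAs, 8, 30 and 56 cDNAs, and 3, 1 and 1 cDNAs. Pooled over the NHL domain libraries, RpLP1 held 29 and RpL41 14 cDNAs in their first 20-nt bin. With full-length Mei-P26 these counts were 0 and 5, so the values rest partly on these 2 genes. Ribosomal protein mRNAs typically begin with a short pyrimidine tract (the TOP element). Its position in the members was not examined. In RpS genes, the last 20% held 44.5%, 32.0% and 49.8% with full-length Mei-P26, 25.2%, 26.1% and 35.8% with the NHL domain, and 28.9%, 39.2% and 18.9% in the control, and there the groups overlapped.

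**Figure D5:**
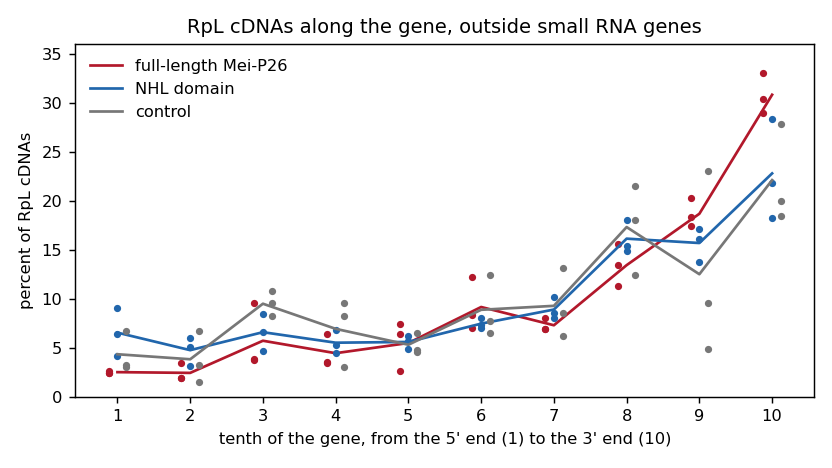
Share of RpL cDNAs in consecutive parts of 10% of the gene from the 5′ to the 3′ end, outside snoRNA positions. Points are libraries and lines are group means. The last 10% holds on average 30.8% in full-length, 22.8% in NHL domain and 22.1% in control libraries.

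Deposited clusters join neighbouring positions that the peak caller placed below a false discovery rate of 0.05. They were found in 33 members with full-length Mei-P26 and in 44 with the NHL domain, in at least 1 library each. All are among the 47 tested members, of which they are 70.2% and 93.6%, beside 44.6% and 52.1% of all tested genes. However, 45 of the 47 members but 320 of the 864 tested genes had at least 50 cDNAs. These shares thus compare genes of unlike cDNA number, and its part in them was not tested. In the control, RpL19, RpL23A, RpL35 and RpLP1 had a cluster, beside 5.56% of all tested genes. Within the groups of both proteins the deeper library had more clusters, with 12, 3 and 37 RpL clusters in the full-length, 9, 25 and 88 in the NHL domain and 2, 2 and 1 in the control libraries, and without replicate 3, the deepest library of either protein, the members with a cluster numbered 13 with full-length Mei-P26 and 22 with the NHL domain. The part of depth in the difference was not tested. All 4 members with a control cluster also had 1 with a FLAG-tagged protein.

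The busiest clustered regions show where along the RefSeq span of each gene the cDNAs were. Distances on this span include introns and are not positions on the spliced mRNA. In RpL39, 43 nt centred 44 nt before the 3′ end held 7, 2 and 20 cDNAs with full-length Mei-P26, 4, 11 and 69 with the NHL domain, and 0 in all control libraries. In RpL35, whose listed element has the longest T run, 70 nt centred 58 nt before the 3′ end held 8, 3 and 30 cDNAs with full-length Mei-P26, 3, 5 and 37 with the NHL domain, and 2, 0 and 0 in the control. In RpLP2, 45 nt centred 47 nt before the 3′ end held 7, 1 and 22, against 0, 5 and 37, and against 1, 1 and 0. All of these lie within the last 100 nt of the gene, as does the region of RpL41. Of the other members whose elements are shown, RpL13A had 39 nt centred 43 nt before the 3′ end with 6, 0 and 8 cDNAs in full-length libraries, 1, 1 and 23 in NHL domain libraries and 0 in all control libraries. In RpL10Ab, 20 nt centred 36 nt before the 3′ end held 3, 0 and 8 cDNAs with full-length Mei-P26, 0, 0 and 19 with the NHL domain, and 0, 1 and 0 in the control. In RpL8, 28 nt centred 52 nt before the 3′ end held 2, 0 and 13 cDNAs with full-length Mei-P26, 3, 3 and 26 with the NHL domain, and 0, 0 and 2 in the control. The region of RpL36A, 31 nt centred 91 nt before the 3′ end, held 6, 2 and 4 cDNAs with full-length Mei-P26, 3, 6 and 28 with the NHL domain, and 1, 1 and 0 in the control. The centres of these 4 regions thus also lie in the last 100 nt, and the region of RpL36A extends past that limit. Most of their NHL domain cDNAs came from replicate 3, the deepest library.

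Other members had their busiest region further from the 3′ end of the gene span, and whether these regions are exonic was not examined. In RpL5 it was centred 2575 nt before the 3′ end, with 2, 1 and 15 cDNAs in full-length libraries, 1, 0 and 24 in NHL domain libraries and 0 in all control libraries. In RpL10 it was centred 503 nt before the 3′ end, with 8, 0 and 15 cDNAs in full-length libraries, 0, 1 and 40 in NHL domain libraries and 0, 3 and 0 in control libraries. In RpL23A it was 990 nt before the 3′ end and held 6, 6 and 10 cDNAs in full-length libraries, 5, 5 and 49 in NHL domain libraries and 3, 1 and 1 in control libraries. All 7 RpL23A cDNAs of full-length replicate 2 were also assigned to Uhg7, as were 60 of 87 in NHL domain replicate 3. Outside snoRNA positions, the busiest region of RpL28 was centred 267 nt before the 3′ end, with 11, 7 and 24 cDNAs in full-length libraries, 3, 3 and 33 in NHL domain libraries and 0, 3 and 0 in control libraries. RpL38 had 32 nt close to its 5′ part, 254 nt from the start, with 0, 1 and 3 cDNAs in full-length libraries, 4, 10 and 18 in NHL domain libraries and 0, 0 and 2 in control libraries. A further RpL38 region 392 nt from the start held 14 cDNAs for full-length Mei-P26, 16 for the NHL domain and 2 in the control, so that the 2 regions were unequally used.

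Clusters with both proteins were present in 31 members, with full-length Mei-P26 alone in RpL30 and RpL40, and with the NHL domain alone in 13. RpL31, RpL24-like, RpL34a, RpL7-like and RpLP0-like had none. In 27 of the 31 shared members peaks of both proteins fell on the same nucleotide, and in all 31 the nearest peaks were within 50 nt. The distance is the smallest over all pairs of peaks in a gene, and RpL28 had 22 full-length and 40 NHL domain peaks. The same counts over all genes are not given here, so these counts are not read as particular to the members. Merged over the libraries of both proteins (gaps up to 20 nt), clusters formed 96 regions, of which 87 were outside snoRNA positions. The centre of 26 of these 87 was within 100 nt of the 3′ end of the gene, and that of 7 within 100 nt of the 5′ end. Recurrence at 1 nucleotide in at least 2 libraries of each protein was limited to RpL11 and RpL41, in RpL41 at a site 37 nt before the end of the gene with 8 cDNAs for full-length Mei-P26, 8 for the NHL domain and 1 in the control.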

How the data were processed

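Members and gene lists were chosen with earlier results of these data known. iCLIP2 libraries were processed by the authors with iCount, and STAR 2.7.3a is named in the submitters' processing notes. PCR duplicates were removed, reads were mapped to the fly genome of Ensembl release 98, and each replicate was handled separately. The deposited counts are distinct cDNAs per crosslinked nucleotide and gene, not normalized. The deposited false discovery rate is the p-value of the peak caller after correction for multiple tests, and peaks and clusters derive from it. Lists of clusters with flanks were not used.

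The counts were summed per gene and library. A position listed for several genes counts for each. Symbols were matched for 6725 of 6780 gene identifiers. Gene spans came from RefSeq (Release 6 plus ISO1 MT), and all 4661 member entries fell within them. No genome sequence was used, so sequence context was not analysed here.

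Rates are cDNAs per 10000. Gene counts were compared with edgeR 4.0.16 (common dispersion 0.120) in R 4.3.3, with 9 libraries in 3 groups and genes of at least 20 cDNAs. DESeq2 1.42.0, other filters and scales, left-out libraries and a replicate block were alternatives. Sums over members have no test. Exact (Clopper-Pearson) 95% intervals and the floor of 3 counts cover counting error only. The study's methods describe the libraries of each protein as independent biological replicates, and the labels do not say this of the control.

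Named members are those past the threshold, the 10 with most cDNAs, snoRNA hosts, those with a recurrent peak for each protein, the 3 highest and 3 lowest fold changes, paralogs and members at 0. The same rule grouped members by their place in the ribosome. RpL6, RpL21 and RpL36, and the regions within genes, were chosen after their values were seen. Tables and figures were made in Python 3.11.15 (SciPy 1.17.1, matplotlib 3.10.9, pandas 2.3.3, NumPy 2.4.6).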

Additional observations from a re-analysis of the deposited data

Results flagged for a closer look

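RpLP1 stood out because the effect of the full-length protein against the control differed from that of the NHL domain against the same control libraries. The test of that difference is the contrast between both proteins, with a log2 fold change of -2.71 (edgeR adjusted p = 2.17e-04). RpLP1 was lower in 3 of 3 full-length libraries than in any NHL domain library. The groups have 3 libraries each, so single values were not screened for outlying libraries.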

How the results depend on the processing

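The number of members called between full-length Mei-P26 and NHL domain was 1 and became 4 with a minimum of 50 cDNAs, 5 with small RNA genes left out of the library size, 2 with the default filter and TMM factors (RpLP1 and RpL41), and 0 without library size. It ranged from 0 to 3 with 1 library left out, with 3 for omitted full-length replicate 2, 0 for omitted full-length replicate 3 and 2 for omitted NHL domain replicate 3. For full-length Mei-P26 against control it was 1 (RpLP1) with the default filter or a minimum of 50 cDNAs, and 0 to 1 with 1 library left out, and for NHL domain against control it was 1 with TMM factors and 2 without library size. RpLP1 against control reversed to 0.98 with full-length Mei-P26 without library size. Deviations of same-numbered libraries had r from -0.07 to 0.15 over 9 pairs, the highest between replicates 3 of both proteins, their deepest libraries. Counting error in the shallow libraries can hide a joint deviation, so these values cannot show that there was none. With the number as a replicate block 1 member and 45 genes in all were called between the proteins, beside 61 without the block.

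The median of the members minus that of all genes reversed to 0.10 and 0.59 with the default filter, and to 0.16 and 0.59 with that filter and TMM factors, for full-length Mei-P26 against control and against NHL domain. That filter leaves 71 genes and 12 members. For NHL domain against control it reversed to 0.00376 without library size, 0.0455 with DESeq2 and 0.117 with DESeq2 and library totals, and ranged from -0.59 to 0.00778 with 1 library left out, the highest without NHL domain replicate 1. Per 10000 cDNAs of protein-coding genes, the RpL rate was 641 in full-length, 981 in NHL domain and 988 in control libraries. Between the outermost crosslinks of a gene, the last 20% held 62.5%, 57.6% and 51.4%, and the last 10% of the RefSeq span held 30.8%, 22.8% and 22.1%. Members with a cluster fell to 10 (full-length) and 21 (NHL domain) when 2 libraries were required and to 5 and 15 when the same nucleotide was, and ranged from 13 to 33 and from 22 to 44 with 1 library left out, lowest without replicate 3. Leaving out RpL41 and RpLP1 was chosen after seeing the data. The cause of these changes was not tested. Depth limits every contrast with the control, whose libraries held 849 to 1252 cDNAs.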
